A study of Mus musculus with 8 samples.

Results

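The genes described here are 34 members of the DNA replication machinery, chosen by gene name in a table of 55487 named genes measured in ileal crypt cells after CPT-11 or vehicle. All 34 names were found and all 34 passed the filter on low counts, under which 14011 genes were tested. By role they comprised 14 genes of helicase loading and activation, 4 polymerase and primase genes, 7 genes of the sliding clamp, its loaders and Okazaki fragment maturation, 3 genes of nucleotide supply and 6 other genes of S phase. Crypt cells were prepared from the ileum of C57BL/6 mice that had received CPT-11 (irinotecan, a prodrug whose active form traps topoisomerase I on DNA) at 20 mg/kg for 7 days, or vehicle, with 4 libraries in each group. Neither the age of the mice nor whether each library came from a separate mouse is given in the sources used here, and if they did not, the spread behind each p-value is technical. The preparation had no sorting step, and the comparison asks how the drug course altered crypt transcripts.

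Before DNA can be copied, the loading factors Cdc6 and Cdt1 place a ring of the proteins Mcm2 to Mcm7 on each origin, and Cdc45 and the GINS complex turn that ring into a working helicase. Polymerase alpha with its primase starts each strand, polymerase epsilon extends the leading strand and polymerase delta the lagging strand, both held on the template by the ring-shaped clamp PCNA. Ribonucleotide reductase and thymidylate synthase supply the deoxynucleotides, and most of these genes are transcribed as cells enter S phase under E2F transcription factors. In the intestine such cells lie mainly in the transit-amplifying zone of the crypt. In bulk RNA from a mixed preparation, fewer cycling cells and less replication RNA per cycling cell cannot be told apart.

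Total counts were between 20790164 and 23479121 per library. CPT-11 replicate 2 stood apart from the other CPT-11 libraries. It correlated with them at Spearman rho 0.931 to 0.962 across genes, held 5.24% of its count in genes over 5000 bases long (6.99 to 10.9% in the other CPT-11 and 8.97 to 10.6% in the vehicle libraries), and had a summed level of 9 enterocyte markers of 62432 CPM. That sum was 19905 to 25233 CPM in the other CPT-11 libraries and 10757 to 17767 CPM in the vehicle libraries (CPM is the count relative to the TMM-scaled library size). None of the 9 enterocyte markers was at 0 in any library, and 2 of them were called higher and 0 lower. Of 5 crypt base stem cell markers 3 were called lower and 0 higher, and their sum was 365 to 545 CPM in CPT-11 and 1317 to 1559 CPM in vehicle libraries. Goblet cell markers summed to 19680 CPM in CPT-11 replicate 2, against 6846 to 10867 CPM in the other CPT-11 and 7171 to 9166 CPM in the vehicle libraries. Of 5 B and plasma cell markers tested 4 were called higher and 0 lower, and the 6 on that list summed to 7.45 to 16.1 CPM in CPT-11 and 1.44 to 5.89 CPM in vehicle libraries. The part of these differences in the results below was not tested.

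Fold changes of the replication genes after CPT-11 were mostly negative and small, and those of the catalytic polymerase and primase genes were the most negative of the role groups. Of the 34 genes, 1 was called lower in CPT-11 libraries, against 2.52% of all genes tested, and 0 were called higher, against 2.98% (edgeR quasi-likelihood test, two-sided, Benjamini-Hochberg adjusted p below 0.05 over all 14011 genes). At an unadjusted p below 0.05, 8 were lower, against 11.2% of all genes, and 0 were higher, against 13.4%. The log2 fold change, CPT-11 over vehicle, was negative for 30 of the 34, against 48.7% of all genes, with a median of -0.21 against 0.01 over all genes. Leaving out CPT-11 replicate 2 moved the members' median to -0.12, and leaving out replicate 4 moved it to -0.35. All 4 CPT-11 values lay below all 4 vehicle values for 7 genes, against 10.1% of all genes, and above them for 0, against 8.41%. The 7 were the 4 polymerase and primase genes with Cdc45, Mcm10 and Rrm1. With 1 library left out the number with a negative sign was 24 to 32, lowest without CPT-11 replicate 2 or 3 and highest without vehicle replicate 2.

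**Figure D1:**
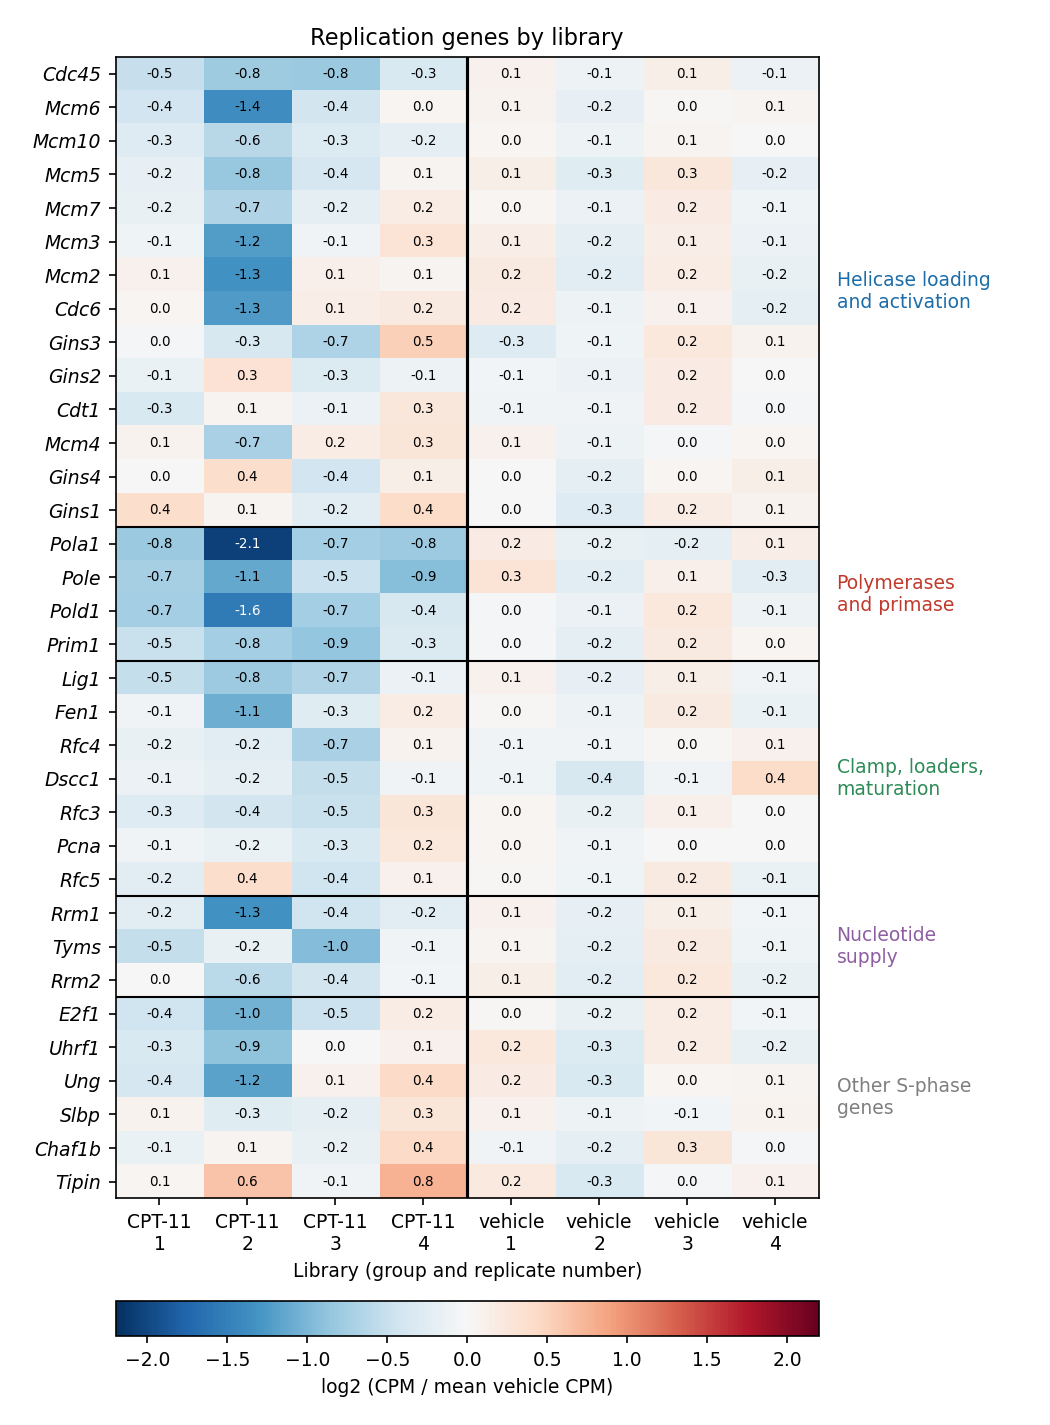
Heat map of the 34 replication genes (rows, grouped by role and ordered by log2 fold change within each role) in the 8 libraries (columns, 4 CPT-11 then 4 vehicle). Colour and number give log2 of the CPM over the mean vehicle CPM. The 4 polymerase and primase rows are blue in all 4 CPT-11 libraries, while most other rows return to or above the vehicle level in CPT-11 replicate 4.

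All 4 polymerase and primase genes were lower in every CPT-11 library than in any vehicle library, against 10.1% of all genes. Their median log2 fold change was -0.79. Pole, on chromosome 5, encodes the catalytic subunit of polymerase epsilon. Its level was 12.8, 9.68, 15.3 and 11 CPM in CPT-11 replicates 1 to 4, against 25.9, 18, 22.8 and 17.7 CPM in vehicle replicates 1 to 4, so the highest CPT-11 value stayed under the lowest vehicle value. It fell 1.73-fold (log2 fold change -0.79 ± 0.19, SE, adjusted p = 0.0412), the only one of the 34 genes to pass the threshold. The call was lost without CPT-11 replicate 1 or 4, without any 1 vehicle library and without CPT-11 replicates 2 and 4 together, with adjusted p from 0.0615 to 0.137, while the log2 fold change stayed between -0.93 and -0.54 over all 18 alternatives.

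Pola1, an X-linked gene, encodes the catalytic subunit of polymerase alpha, which begins every new DNA strand together with primase. It stood at 8.9, 3.76, 9.33 and 9.0 CPM in CPT-11 libraries, against 17.6, 14, 13.6 and 17.1 CPM in vehicle libraries. Replicates 1, 3 and 4 of the CPT-11 group lay close together and replicate 2 far below them. The log2 fold change was -1.0 ± 0.26, with a 95% interval of -1.59 to -0.42 and an adjusted p of 0.0557 (edgeR). Without CPT-11 replicate 2 it was -0.77 with an adjusted p of 0.0102.

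Pold1, on chromosome 7, encodes the catalytic subunit of polymerase delta. Its level was 28.8, 16.3, 28.8 and 37.6 CPM in CPT-11 libraries, against 47.1, 44, 56.7 and 44.4 CPM in vehicle libraries, again with no overlap (log2 fold change -0.79 ± 0.22, adjusted p = 0.0701). Without CPT-11 replicate 2 the log2 fold change was -0.59 and the adjusted p 0.029. Prim1, on chromosome 10, encodes the catalytic subunit of primase, which lays down the RNA primers. It stood at 17.3, 14.4, 13.5 and 19.6 CPM in CPT-11 libraries, against 23.6, 21, 27.8 and 24.9 CPM in vehicle libraries (log2 fold change -0.58 ± 0.16, adjusted p = 0.0623). Prim1 differed by a similar amount without CPT-11 replicate 2 (-0.52, adjusted p = 0.0622).

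Pole and Pola1 are the longest of the 34 transcripts, at 7163 and 5346 bases in the table, and CPT-11 replicate 2 held the smallest share of long-gene reads. With the dependence of each library on gene length taken out, all 4 genes were called lower, with log2 fold changes of -0.54 for Pole, -0.84 for Pola1, -0.72 for Pold1 and -0.72 for Prim1. In that fit 5 of the 34 genes were called lower, the fifth being Cdc45, against 4.39% of all genes.

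**Figure D2:**
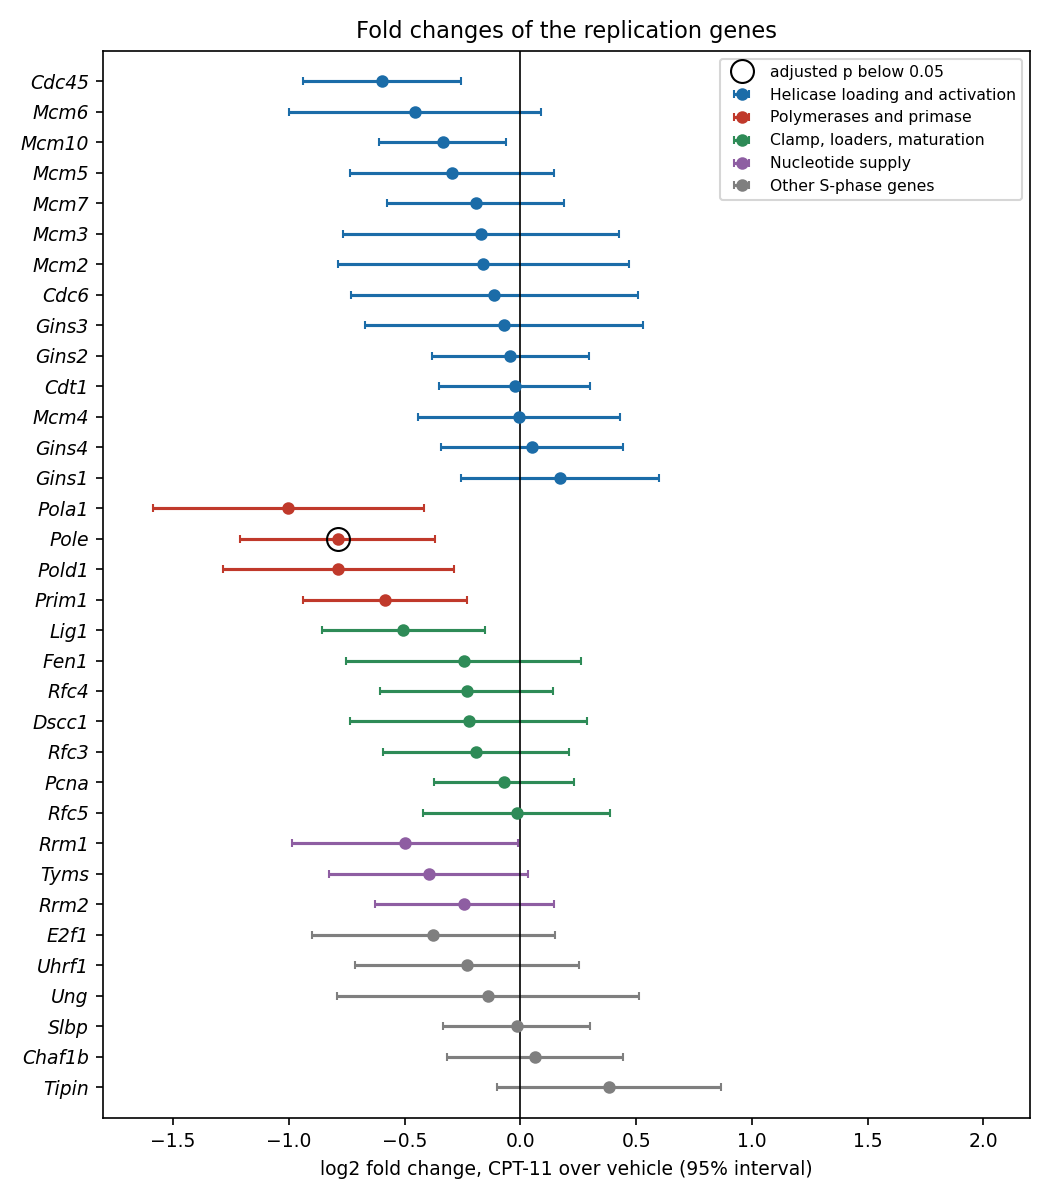
Log2 fold change, CPT-11 over vehicle, of each of the 34 genes with its 95% interval from the edgeR fit (4 libraries per group), coloured by role. The open ring marks Pole, the gene with an adjusted p below 0.05, and the intervals of the 4 polymerase and primase genes end below 0.

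Of the 8 other subunits of these enzymes 0 passed the threshold, against 2.52% of all genes lower and 2.98% higher. Whether these subunits differ from the catalytic subunits was not tested. Pola2, the B subunit of polymerase alpha, was at 31.9, 33.2, 29 and 33.3 CPM in CPT-11 libraries, against 31.9, 29.8, 35.6 and 27.9 CPM in vehicle libraries, and these ranges overlapped (log2 fold change 0.02, 95% interval -0.25 to 0.29). For polymerase epsilon the log2 fold changes were -0.10 for Pole2, 0.10 for Pole3 and 0.14 for Pole4, with adjusted p-values of 0.767, 0.691 and 0.545. For polymerase delta, Pold2 was at -0.36 and Pold3 at -0.32, with adjusted p-values of 0.189 and 0.311, while Pold4 was at 0.64 (adjusted p = 0.194). Prim2, the large primase subunit, was at -0.50 (adjusted p = 0.229), with every CPT-11 value below every vehicle value.

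Ratios of levels per kilobase (FPKM, CPM divided by the table's transcript length in kilobases) within a library set each catalytic subunit beside its partner. These pairs were formed after the values were seen and carry no test. The dependence of each library on gene length was not taken out of these ratios, and its part in them was not tested. Pola1 over Pola2 was 0.111 ± 0.041 in CPT-11 and 0.228 ± 0.046 in vehicle libraries (SD, n = 4 each), with the highest CPT-11 ratio of 0.146 below the lowest vehicle ratio of 0.173. Pold1 over Pold2 was 0.250 ± 0.082 in CPT-11 and 0.330 ± 0.0049 in vehicle libraries, again without overlap, but CPT-11 replicate 2 at 0.131 lay far from the other 3 at 0.272 to 0.318. Pole over Pole2 was 0.422 ± 0.113 in CPT-11 and 0.656 ± 0.151 in vehicle libraries, and CPT-11 replicate 3 overlapped the vehicle range. Prim1 over Prim2 was 2.50 ± 0.817 in CPT-11 and 2.46 ± 0.289 in vehicle libraries, with overlap. The CPT-11 mean rests on replicate 2 at 3.71, since the other 3 CPT-11 ratios were 1.93 to 2.23, against 2.18 to 2.73 in vehicle libraries.

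**Figure D3:**
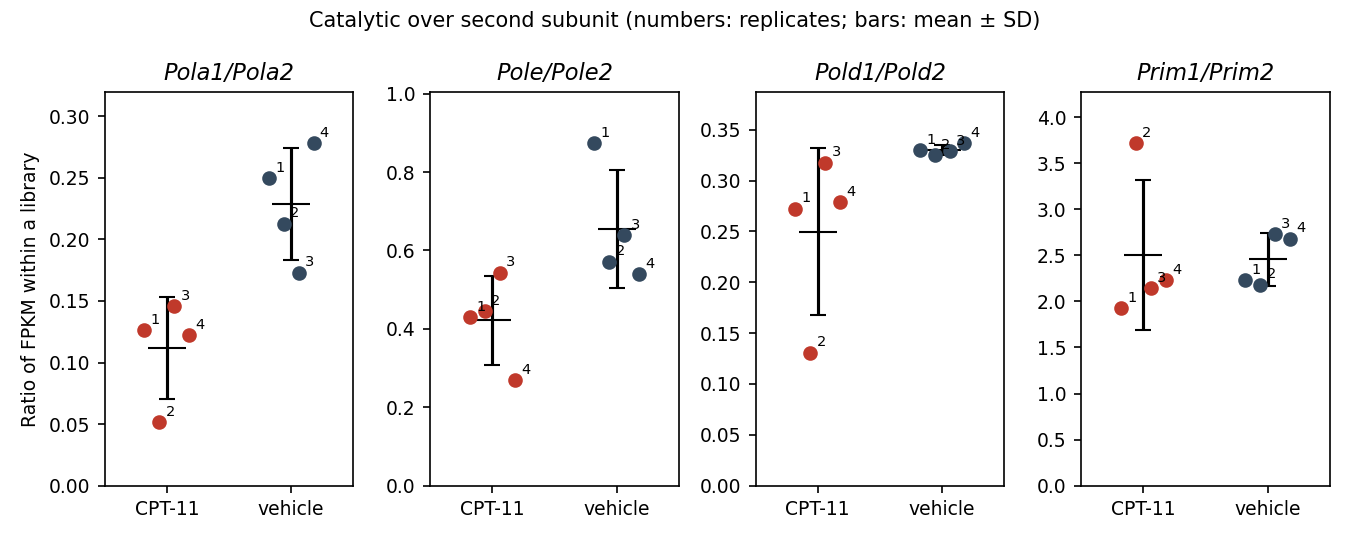
Ratio of FPKM within each library for the pairs Pola1/Pola2, Prim1/Prim2, Pole/Pole2 and Pold1/Pold2, with CPT-11 libraries on the left and vehicle libraries on the right of each panel. Points are numbered by replicate and bars show mean ± SD (n = 4). The groups are separate for Pola1/Pola2 and Pold1/Pold2 and overlap for the other pairs. The dependence of each library on gene length was not taken out.

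Promoter windows of 300 bases (250 before to 50 after the start, RefSeq, GRCm38.p6) were at hand for 27 of the 34 genes. Those of Pola1, Pold1 and Prim1, the polymerase and primase genes with a window, are shown. Mcm6 and Pcna, in which the groups overlapped, are added for the helicase and clamp. Pola1 lies at chrX:93632106-93632405 (minus strand), Pold1 at chr7:44548766-44549065 (minus strand), Prim1 at chr10:128014965-128015264 (plus strand), Mcm6 at chr1:128359656-128359955 (minus strand) and Pcna at chr2:132253131-132253430 (minus strand). Sequences run 5′ to 3′ on the gene's strand, and capitals mark E2F motifs (TTTCCCGC, TTTGGCGC, TTTCGCGC or TTTGCCGC on either strand, where neighbouring matches may overlap).
Pola1: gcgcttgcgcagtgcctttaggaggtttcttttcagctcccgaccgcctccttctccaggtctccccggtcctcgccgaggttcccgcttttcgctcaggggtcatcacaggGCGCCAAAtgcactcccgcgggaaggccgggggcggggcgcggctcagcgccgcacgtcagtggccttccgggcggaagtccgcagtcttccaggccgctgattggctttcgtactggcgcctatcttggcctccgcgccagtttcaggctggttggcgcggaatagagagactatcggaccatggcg
Pold1: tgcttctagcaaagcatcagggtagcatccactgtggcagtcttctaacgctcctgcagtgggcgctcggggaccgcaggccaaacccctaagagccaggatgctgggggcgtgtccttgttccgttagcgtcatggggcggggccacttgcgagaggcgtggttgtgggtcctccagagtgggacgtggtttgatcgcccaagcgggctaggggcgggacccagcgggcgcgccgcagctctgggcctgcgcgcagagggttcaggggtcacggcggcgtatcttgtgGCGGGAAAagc
Prim1: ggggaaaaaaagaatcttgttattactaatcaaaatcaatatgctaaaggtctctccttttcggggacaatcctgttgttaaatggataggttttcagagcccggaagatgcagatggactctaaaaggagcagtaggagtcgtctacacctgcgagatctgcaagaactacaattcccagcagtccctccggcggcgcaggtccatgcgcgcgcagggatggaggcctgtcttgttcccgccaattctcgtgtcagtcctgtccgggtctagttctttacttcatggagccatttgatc
Mcm6: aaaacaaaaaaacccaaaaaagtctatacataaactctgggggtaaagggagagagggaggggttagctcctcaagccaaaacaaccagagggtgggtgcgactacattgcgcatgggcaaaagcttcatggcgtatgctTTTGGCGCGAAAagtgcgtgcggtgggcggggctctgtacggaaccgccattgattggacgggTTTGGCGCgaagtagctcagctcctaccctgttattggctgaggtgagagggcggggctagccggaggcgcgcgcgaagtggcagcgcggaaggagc
Pcna: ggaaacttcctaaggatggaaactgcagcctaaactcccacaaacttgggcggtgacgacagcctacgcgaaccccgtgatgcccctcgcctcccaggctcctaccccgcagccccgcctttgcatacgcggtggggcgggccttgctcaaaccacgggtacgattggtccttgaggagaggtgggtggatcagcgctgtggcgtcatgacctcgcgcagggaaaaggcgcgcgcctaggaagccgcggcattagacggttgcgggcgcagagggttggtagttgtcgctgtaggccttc

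At least 1 E2F motif stood in the windows of 12 of the 27 genes (44.4%), against 2.60% of all 27025 genes in the RefSeq table. By role these were 7 of 10 helicase genes, 2 of 3 polymerase genes, 2 of 6 clamp genes, 0 of 3 nucleotide genes and 1 of 5 other genes. All windows of E2f1, Cdc6 and Mcm7 lie inside the gene as annotated in GENCODE. For these genes the sequence before that annotated start was not searched, and E2f1 is counted as without a motif. The Mcm6 window held 3 matches, a pair of them overlapping on opposite strands about 100 bases before the start, while Prim1 and Pcna held none of these letters. The windows of Cdc45, Mcm10 and Rrm1, genes without overlap between the groups, also held none and are not shown. A CCAAT box (CCAAT on either strand) stood in the windows of 16 of the 27 genes (59.3%), against 41.1% of all genes. Pole had no window in the table.

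Helicase loading and activation genes were close to the vehicle level, with a median log2 fold change of -0.14. In 2 of 14, Cdc45 and Mcm10, all CPT-11 values lay below all vehicle values, against 10.1% of all genes. None of the 14 was called by edgeR, against 2.52% of all genes called lower. An unadjusted p below 0.05 was reached by 2, against 11.2% of all genes lower. DESeq2 called Cdc45 lower, against 6.00% of all genes. Cdc45, part of the active helicase, stood at 13.4, 11, 10.8 and 15.2 CPM in CPT-11 libraries, against 20.5, 17.6, 20.8 and 17.4 CPM in vehicle libraries. Every CPT-11 value was below every vehicle value (log2 fold change -0.60 ± 0.15, adjusted p = 0.0525). Without CPT-11 replicate 4, the highest CPT-11 value, the adjusted p was 0.0483, and without vehicle replicate 1 it was 0.163 (edgeR). Mcm10, a factor that helps activate the loaded helicase, was at 34.3, 27.6, 34.2 and 36.7 CPM in CPT-11 libraries, against 43.2, 38.7, 43.8 and 41.8 CPM in vehicle libraries. Its log2 fold change was small, at -0.34 ± 0.12 (adjusted p = 0.135). The Mcm10 transcript is long, at 4867 bases, and with the length trend removed the log2 fold change was -0.16 (edgeR, adjusted p = 0.359).

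The 6 genes of the Mcm2 to Mcm7 ring had log2 fold changes from -0.45 to -0.01 with a median of -0.18. Of the 6, 0 had groups without overlap, against 10.1% of all genes lower and 8.41% higher. Mcm6 was at 83.6, 43.2, 83.7 and 114 CPM in CPT-11 libraries, against 117, 98.1, 114 and 116 CPM in vehicle libraries, a log2 fold change of -0.45 ± 0.24 (adjusted p = 0.275). Mcm5 was at 89.3, 56.9, 78.8 and 105 CPM in CPT-11 libraries, against 111, 84.4, 121 and 89.3 CPM in vehicle libraries (log2 fold change -0.29, adjusted p = 0.371). In both genes CPT-11 replicate 2 was lowest of all 8 libraries and CPT-11 replicate 4 lay within the vehicle range. Mcm2 in CPT-11 replicate 2 was at 37.5% of the mean of the other 3 CPT-11 libraries, Mcm3 at 41.0%, Mcm6 at 46.1%, Mcm4 at 54.0%, Mcm5 at 62.4% and Mcm7 at 65.8%. Without that library the log2 fold changes were 0.10 for Mcm2, 0.07 for Mcm3, 0.18 for Mcm4, -0.14 for Mcm5, -0.23 for Mcm6 and -0.05 for Mcm7, so that 3 of the 6 were then above 0.

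Within the ring, levels per kilobase kept nearly the same order in all libraries. Mcm4 was lowest in all 8 libraries. Mcm6 was highest in the 4 vehicle libraries and CPT-11 replicate 4, and Mcm7 in CPT-11 replicates 1 to 3. Mcm6 averaged 27.9 ± 10.0 FPKM in CPT-11 and 38.2 ± 3.04 FPKM in vehicle libraries (SD, n = 4 each) and Mcm4 10.2 ± 2.73 FPKM in CPT-11 and 10.3 ± 0.666 FPKM in vehicle libraries. The highest over the lowest of the 6 genes was 2.54 to 3.44 in CPT-11 and 3.56 to 3.91 in vehicle libraries.

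The loading factors and the GINS genes, whose products join Cdc45 at the helicase, had estimates nearer to no difference. Cdc6 was at 13.8, 5.61, 14.7 and 15.3 CPM in CPT-11 libraries, against 15.3, 12.4, 14.4 and 11.5 CPM in vehicle libraries, and CPT-11 replicate 2 alone lay below the vehicle range. Its log2 fold change was -0.11 with all libraries (95% interval -0.73 to 0.51) and 0.14 without that one. Cdt1 had a log2 fold change of -0.02 (95% interval -0.35 to 0.30). Gins1, with the highest log2 fold change of the helicase group, was at 8.49, 6.78, 5.48 and 8.6 CPM in CPT-11 libraries, against 6.54, 5.35, 7.26 and 6.91 CPM in vehicle libraries (0.17 ± 0.19, adjusted p = 0.598), and its sign turned to -0.05 once the length trend was removed. Gins2, Gins3 and Gins4 had log2 fold changes of -0.04, -0.07 and 0.05, with 95% intervals of -0.38 to 0.30, -0.67 to 0.53 and -0.34 to 0.44, and the sign of each changed in at least 1 alternative. Most of the exon length of Gins2 overlaps Gse1 on the opposite strand, and whether counting used strand is not given in the sources used here.

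The clamp, its loaders and the maturation enzymes had a median log2 fold change of -0.22, with 7 of 7 negative, 0 of 7 without overlap and 0 called by edgeR (1 at an unadjusted p below 0.05, and Lig1 by DESeq2). Over all genes the shares lower were 10.1% without overlap, 2.52% by edgeR, 11.2% at that unadjusted p and 6.00% by DESeq2. With the length trend removed the clamp group's median was -0.36, with Rfc4 at -0.42, Pcna at -0.21 and Rfc5 at 0.02. Pcna, the clamp itself, was at 142, 135, 119.7 and 176 CPM in CPT-11 libraries, against 155, 143, 151 and 152 CPM in vehicle libraries. The CPT-11 values lay on both sides of the narrow vehicle range, and the log2 fold change was -0.07 ± 0.14 with a 95% interval of -0.37 to 0.23 (adjusted p = 0.769). Lig1, the ligase that seals Okazaki fragments, was at 43.4, 35.8, 39.5 and 56.6 CPM in CPT-11 libraries, against 66.7, 54.8, 68.3 and 59 CPM in vehicle libraries. CPT-11 replicates 1 to 3 lay below every vehicle library and replicate 4 within the vehicle range (log2 fold change -0.51 ± 0.16, adjusted p = 0.093). Without CPT-11 replicate 4, the highest CPT-11 value, the adjusted p was 0.0405, and without vehicle replicate 1 it was 0.245 (edgeR).

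Rfc3, Rfc4 and Rfc5 encode subunits of the clamp loader. Rfc4 was at 18.8, 17.9, 12.8 and 22.1 CPM in CPT-11 libraries, against 20.0, 20.0, 21.5 and 22.6 CPM in vehicle libraries (log2 fold change -0.23 ± 0.17, adjusted p = 0.405). Rfc3 was at 16.3, 14.9, 14.1 and 23.8 CPM in CPT-11 libraries, against 20.4, 17.6, 21.4 and 19.5 CPM in vehicle libraries (-0.19 ± 0.18, adjusted p = 0.524). In Rfc4 and Rfc3 alike, CPT-11 replicate 3 was the lowest library and the groups overlapped. Rfc5, with the highest log2 fold change of the group at -0.02, was at 34.7, 53.7, 30.3 and 43.5 CPM in CPT-11 libraries, against 41.6, 38.2, 46.8 and 36.9 CPM in vehicle libraries. Its CPT-11 replicate 2 was the highest of all 8 libraries, and without it the log2 fold change was -0.17. Fen1, the flap endonuclease, was at 43.1, 21.6, 37.9 and 50.8 CPM in CPT-11 libraries, against 46.3, 42.2, 52 and 41.2 CPM in vehicle libraries (-0.24 ± 0.23, adjusted p = 0.519), with replicate 2 at 49.1% of the mean of the other 3 CPT-11 libraries and a log2 fold change of -0.04 without it. Without that library Pcna was at -0.03 and Rfc3 at -0.12. Dscc1, a subunit of the alternative clamp loader used in sister chromatid cohesion, was at 3.09, 2.96, 2.34 and 3.21 CPM in CPT-11 and 3.18, 2.65, 3.21 and 4.48 CPM in vehicle libraries (-0.22, adjusted p = 0.56). An antisense transcript on the opposite strand covers most of the exon length of Fen1.

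Nucleotide supply genes had a median log2 fold change of -0.40, with 3 of 3 negative, 1 of 3 without overlap and 0 called by edgeR or DESeq2 (1 at an unadjusted p below 0.05). Shares of all genes lower were 10.1% without overlap, 2.52% by edgeR, 6.00% by DESeq2 and 11.2% at that unadjusted p. Rrm1, the large subunit of ribonucleotide reductase, was at 85.6, 40.5, 74.7 and 86.1 CPM in CPT-11 libraries, against 108, 89.9, 111 and 97.4 CPM in vehicle libraries. All CPT-11 values were below all vehicle values, with replicate 2 far below the rest (log2 fold change -0.50 ± 0.22, adjusted p = 0.195, and -0.29 without that library). Rrm2, its small subunit, was at 37.4, 24.5, 28 and 35.5 CPM in CPT-11 libraries, against 40.6, 31.2, 43.5 and 33 CPM in vehicle libraries, with overlap (-0.24 ± 0.17, adjusted p = 0.402, and -0.13 without CPT-11 replicate 2). Tyms, thymidylate synthase, was at 34.4, 44, 25.4 and 46.6 CPM in CPT-11 libraries, against 51.8, 42.8, 56.9 and 46.2 CPM in vehicle libraries (-0.40 ± 0.19, adjusted p = 0.232). Here CPT-11 replicates 2 and 4 lay at the vehicle level and replicates 1 and 3 below it. Without replicates 2 and 4 together, the highest CPT-11 values, the adjusted p was 0.0158. That choice of libraries by itself widens the difference, and without vehicle replicate 3 the adjusted p was 0.432 (edgeR). Per kilobase, Rrm1 over Rrm2 was 0.907 in CPT-11 replicate 2, against 1.26 to 1.47 in the other CPT-11 and 1.40 to 1.62 in the vehicle libraries.

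The 6 other genes of S phase had a median log2 fold change of -0.08, with 4 negative, 2 positive and 0 called in either direction by edgeR, by DESeq2 or at an unadjusted p below 0.05. At that unadjusted p 11.2% of all genes were lower and 13.4% higher. By edgeR 2.52% of all genes were called lower and 2.98% higher. DESeq2 called 6.00% of all genes lower and 1045 of 13984 higher. E2f1, a transcription factor that drives S-phase genes, was at 5.9, 3.89, 5.78 and 8.95 CPM in CPT-11 libraries, against 8.15, 7.11, 8.93 and 7.68 CPM in vehicle libraries (-0.38 ± 0.24, adjusted p = 0.343). CPT-11 replicates 1 to 3 were below every vehicle library and replicate 4 above them all. Uhrf1, which reads newly copied methylated DNA, was at 49.9, 34, 63.7 and 67.3 CPM in CPT-11 libraries, against 74.3, 51.2, 70.6 and 56.1 CPM in vehicle libraries (-0.23 ± 0.22, adjusted p = 0.526). Ung, the uracil-DNA glycosylase, was at 9.4, 5.37, 13.1 and 16.3 CPM in CPT-11 libraries, against 13.7, 9.67, 12.6 and 12.7 CPM in vehicle libraries (-0.14 ± 0.29, adjusted p = 0.789). For Uhrf1 and Ung the CPT-11 libraries spread more widely than the vehicle libraries. Without CPT-11 replicate 2 the log2 fold changes were -0.20 for E2f1, -0.05 for Uhrf1 and 0.09 for Ung.

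Tipin, which protects the moving fork together with Timeless, had the highest log2 fold change of the 34 genes. It was at 12.9, 19.2, 11.8 and 21.1 CPM in CPT-11 libraries, against 14.4, 9.81, 12.2 and 13.4 CPM in vehicle libraries, so that CPT-11 replicates 2 and 4 were above the vehicle range and replicates 1 and 3 within it (0.38 ± 0.22, adjusted p = 0.299). Without replicates 2 and 4 the log2 fold change was -0.01. Chaf1b, a subunit of the histone chaperone CAF-1, and Slbp, which binds the stem-loop of histone mRNAs, were at 0.06 and -0.02, with 95% intervals of -0.32 to 0.44 and -0.33 to 0.30, and the sign of each turned in several alternatives.

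Set side by side by role, the polymerase group was the 1 of 5 groups in which CPT-11 and vehicle libraries did not overlap. Its mean log2 (CPM + 0.5) was 3.35 to 4.09 in CPT-11 and 4.49 to 4.77 in vehicle libraries, a difference of -0.80 with SDs of 0.34 in CPT-11 and 0.13 in vehicle libraries (n = 4 each). The difference was -0.41 for nucleotide supply, -0.23 for clamp genes, -0.20 for helicase genes and -0.09 for the other genes, and each of these groups overlapped. Without CPT-11 replicate 2 the median log2 fold change was -0.64 for polymerase, -0.29 for nucleotide, -0.17 for clamp, -0.05 for helicase and 0.07 for other genes. With the length trend removed the median was -0.36 for clamp, -0.32 for nucleotide and -0.12 for helicase genes. In that fit the 4 polymerase genes were at -0.84 to -0.54. Whether the role groups differ from each other was not tested.

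**Figure D4:**
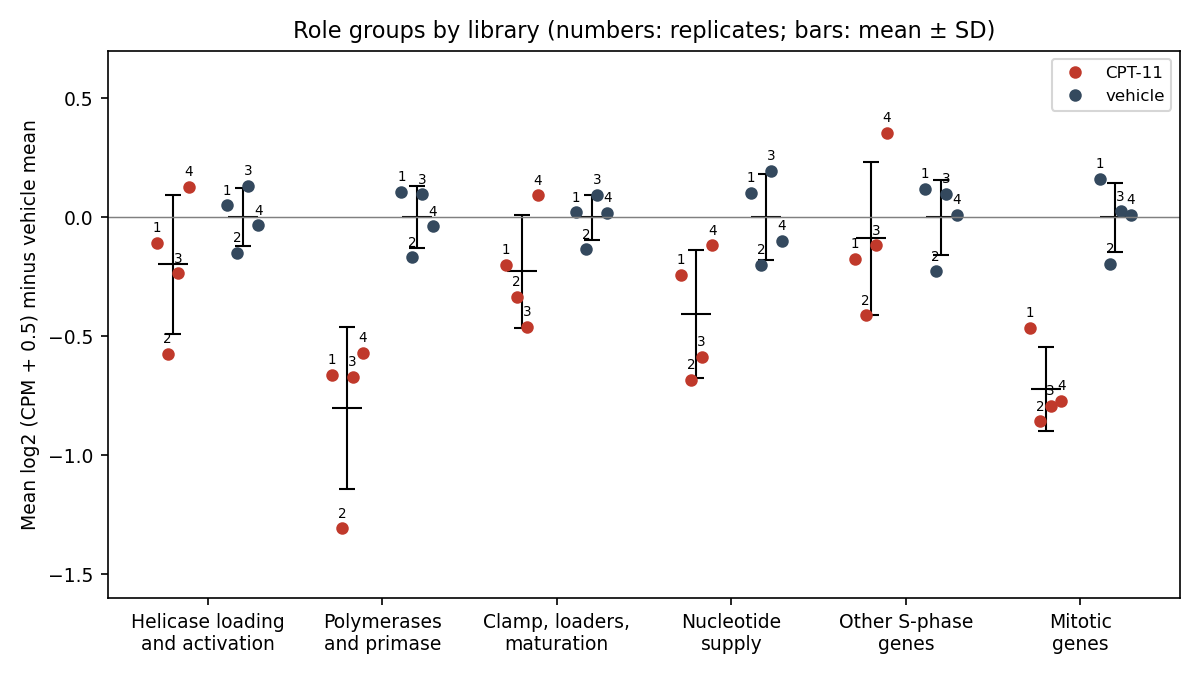
Mean log2 (CPM + 0.5) of each role group minus its vehicle mean, one point per library, numbered by replicate, with CPT-11 left of vehicle and bars for mean ± SD (n = 4); 34 mitotic genes are drawn beside them. The polymerase and mitotic groups are the ones whose CPT-11 points all lie below their vehicle points, and CPT-11 replicate 4 is at or above the vehicle mean for helicase, clamp and other genes.

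The CPT-11 libraries did not place the 34 genes alike. Replicate 1 was below the vehicle range for 20 genes, replicate 2 for 25, replicate 3 for 25 and replicate 4 for 7, and these libraries were above it for 1, 4, 1 and 14 genes. Over all genes tested the shares below were 29.9%, 41.7%, 31.4% and 33.4%, and the shares above were 28.5%, 38.9%, 28.0% and 33.2%. CPT-11 replicate 4 was the highest of the 4 CPT-11 libraries for 27 of the 34 genes and replicate 2 the lowest for 19. The coefficient of variation was larger among CPT-11 than among vehicle libraries for 33 of the 34 genes, with medians of 25.1% in CPT-11 and 11.2% in vehicle libraries. Over all genes these medians were 24.2% and 12.0%, so the wider spread was shared with the transcriptome. Without replicate 2 the median for the 34 genes was 16.6% in CPT-11 libraries.

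Levels per kilobase ranged over more than an order of magnitude. Pcna was the most abundant of the 34 genes, at 94.2 ± 15.5 FPKM in CPT-11 and 98.9 ± 3.47 FPKM in vehicle libraries (SD, n = 4 each), well above Mcm6 and Mcm7, the next in order, whose ranges overlapped each other. Rrm1 averaged 17.9 ± 5.38 FPKM in CPT-11 and 25.4 ± 2.4 FPKM in vehicle libraries. Among the lowest were Gins3, at 1.54 ± 0.563 FPKM in CPT-11 and 1.62 ± 0.246 FPKM in vehicle libraries, and the catalytic subunits Pola1, at 1.45 ± 0.498 FPKM in CPT-11 and 2.92 ± 0.390 FPKM in vehicle libraries, and Pole, at 1.7 ± 0.337 FPKM in CPT-11 and 2.94 ± 0.557 FPKM in vehicle libraries. Neighbours in the order below Mcm7 mostly overlapped in their library values.

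**Figure D5:**
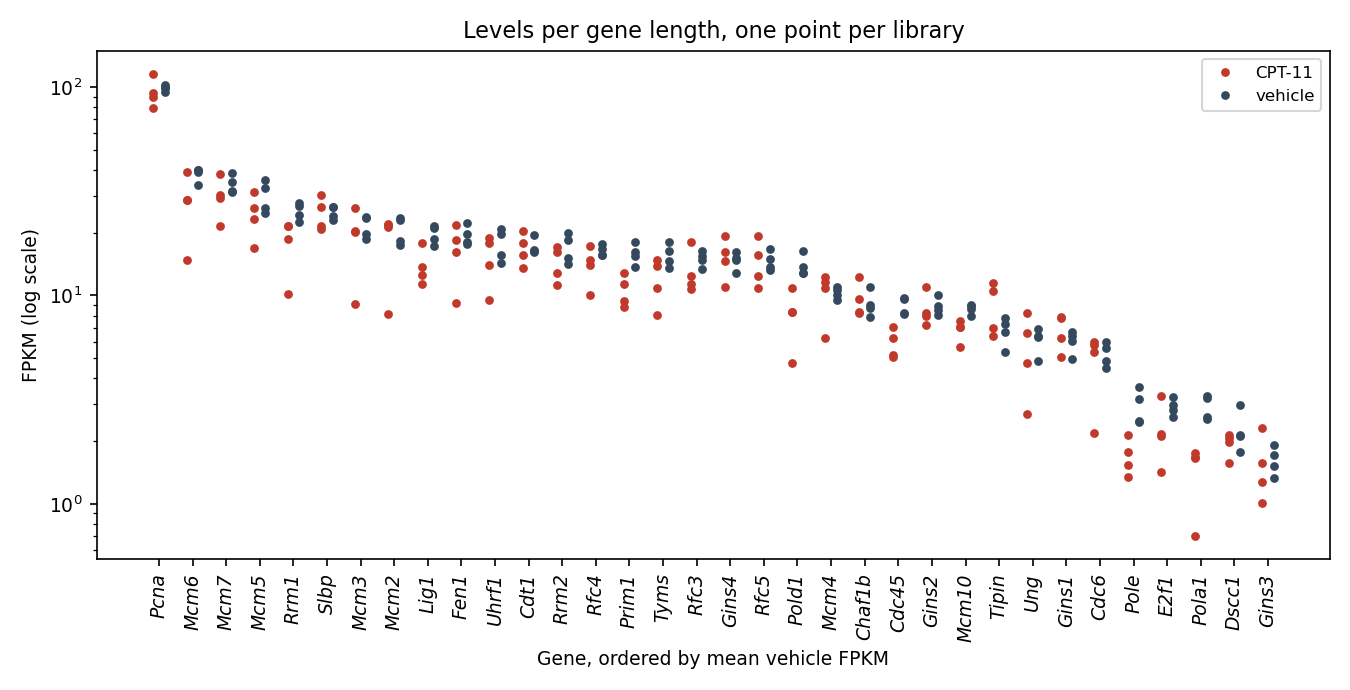
FPKM of each of the 34 genes on a log axis, ordered by mean vehicle FPKM, with 1 point per library and CPT-11 points left of vehicle points. Pcna stands alone at the top, and Pole and Pola1 lie near the bottom with their CPT-11 points below their vehicle points.

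Of 57 further replication genes found, 4 were called lower and 0 higher by edgeR, against the same 2.52% lower and 2.98% higher of all genes. At an unadjusted p below 0.05, 11 were lower, against 11.2% of all genes, and 2 higher, against 13.4%. Their median log2 fold change was -0.16, and -0.09 to -0.27 with 1 library left out. All CPT-11 values lay below all vehicle values for 11 of them and above for 1, against 10.1% and 8.41% of all genes. E2f8, a repressor of the E2F family that is itself made in S phase, was at 13.1, 7.89, 15.2 and 11.2 CPM in CPT-11 libraries, against 35.1, 28, 38 and 27.7 CPM in vehicle libraries, and fell 2.71-fold (log2 fold change -1.44 ± 0.21, adjusted p = 0.00615). Tk1, thymidine kinase of the nucleotide salvage pathway, was at 23.5, 26.5, 17.9 and 29.4 CPM in CPT-11 libraries, against 52.6, 46.8, 65.3 and 53.3 CPM in vehicle libraries, and fell 2.24-fold (adjusted p = 0.00674). E2f8 and Tk1 had no overlap between groups and were called in all 18 alternatives.

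Chtf18, which forms the alternative clamp loader with Dscc1, was at 8.72, 9.5, 7.78 and 11.7 CPM in CPT-11 libraries, against 18.3, 15.3, 21.9 and 18.6 CPM in vehicle libraries (-0.98 ± 0.17, adjusted p = 0.0126, and 0.0519 without vehicle replicate 3). Asf1b, a histone chaperone, was at 17.4, 13.3, 12.3 and 18.4 CPM in CPT-11 libraries, against 28.7, 22.7, 28.8 and 24.1 CPM in vehicle libraries (-0.76 ± 0.17, adjusted p = 0.0307). The Asf1b call was lost without CPT-11 replicate 1 or any 1 vehicle library (adjusted p 0.0521 to 0.108). On the other side, Orc4, a subunit of the origin recognition complex, was at 19, 25.5, 18.7 and 18 CPM in CPT-11 libraries, against 14.7, 13.7, 12.6 and 14.6 CPM in vehicle libraries (0.54 ± 0.15, adjusted p = 0.0655), the 1 further gene with every CPT-11 value above every vehicle value. Pold4, the small subunit of polymerase delta, was at 0.64 ± 0.28 (adjusted p = 0.194), with CPT-11 replicate 2 at 45 CPM and the other 3 CPT-11 libraries at 18.3 to 22.1 CPM. The Pold4 log2 fold change was 0.26 without replicate 2. Donson, a factor for helicase assembly, was at 0.26 ± 0.16 (adjusted p = 0.336). Of 34 mitotic genes, for which earlier results of these data were known, 17 were called lower and 0 higher, against 2.52% and 2.98% of all genes. Their median was -0.69, and 21 of 34 were lower without overlap, against 10.1% of all genes.

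The number of the 34 genes called lower depended on the method and on single libraries, while the genes called came from a short list. DESeq2 called 6 lower, against 6.00% of all genes, namely Cdc45, Lig1, Pola1, Pold1, Pole and Prim1. Limma-voom called Cdc45, Pola1 and Pole, against 2.72%. With sample quality weights it called 8, the 6 of DESeq2 with Mcm10 and Tyms, against 11.6%. With no filter on low counts Pola1, Pold1 and Pole were called, against 1.43%. Without CPT-11 replicate 2 the same 3 genes were called, against 3.80%, and without CPT-11 replicate 3 Pola1 and Pole were called, against 5.32%. Without CPT-11 replicate 4 Cdc45 and Lig1 were called, against 1.41%, and without replicates 2 and 4 together Cdc45, Lig1, Pola1, Pold1, Prim1 and Tyms were called, against 3.94%. With the replicate number as a block Pola1 and Pole were called, against 2.06%. Without CPT-11 replicate 1, 0 of the 34 were called, against 1.22%. Without any 1 vehicle library 0 were called as well, against 0.756, 1.28, 0.729 and 1.27% of all genes without vehicle replicates 1 to 4. Over all 18 alternatives the adjusted p ran from 0.00264 to 0.158 for Pola1, from 0.00302 to 0.201 for Pold1, from 0.0092 to 0.185 for Prim1, from 0.00518 to 0.163 for Cdc45, from 0.0112 to 0.245 for Lig1 and from 0.0158 to 0.432 for Tyms. The log2 fold changes of these 6 genes were negative in every alternative.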

How the data were processed

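RNA from ileal crypt cells was sequenced in 8 libraries, 4 of CPT-11 and 4 of vehicle. The authors deposited estimated counts per gene, not normalized, in a table of 56030 rows. Per the submitters' processing notes Bowtie2 2.4.1 and GRCm38.p6 were used. Which program made the estimates, and with which strand setting, is not given in the sources used here. The 543 rows without a gene name (0.325 to 0.662% of each library's count) were left out. In each library 10.3 to 11.1% of values had a fraction (tolerance 0), and counts were rounded.

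Counts were tested with edgeR 4.0.16 in R 4.3.3 (TMM scaling, default expression filter, robust quasi-likelihood F test, two-sided, Benjamini-Hochberg adjustment over 14011 genes, threshold 0.05), a test also run on simulated data. Standard errors were derived from F, and intervals are 95% intervals. CPM used TMM-scaled library sizes, and FPKM divided CPM by the table's gene length in kilobases. As alternatives, scaling was by RLE or upper quartiles. The filter was dropped or raised to 1 CPM in 4 libraries. DESeq2 1.42.0 and limma-voom (limma 3.58.1), the second also with sample quality weights, replaced edgeR. A replicate block was added, a lowess trend on gene length was subtracted per library, 1 library at a time was left out, and CPT-11 replicates 2 and 4 were left out together.

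The members and lists were chosen with earlier results of these data known, so no set test was run. Library values are given for called members and, in each role group, for the 4 members with the smallest p and the one with the highest log2 fold change, and those of Pcna, Dscc1 and Cdc6 were added. Of the further list those called and the 3 with the smallest p in each direction are named. The accessory polymerase subunits, and the promoters other than that of Pcna, were chosen after values were seen. Of 58 further names, 57 matched a row. Exons of 10 members overlap another gene in GENCODE on GRCm38, and 16 members had a value that was not whole. The pseudogenes Pcna-ps1 and Pcna-ps2 were at 0 counts in every library and Tyms-ps had at most 2.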

Additional observations from a re-analysis of the deposited data

Results flagged for a closer look

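Dixon's test was applied to each of the 34 genes in each group of 4 libraries, 68 tests in all, of which chance singles out about 1 in 20. It singled out 5 library values. Mcm2 stood at 27.51 CPM in CPT-11 replicate 2, against 71.9 to 74.5 CPM in the other CPT-11 libraries. Cdc6 stood at 5.612 CPM in the same library, against 13.8 to 15.3 CPM, and Pola1 at 3.762 CPM, against 8.90 to 9.33 CPM. Mcm6 had 98.07 CPM in vehicle replicate 2, where the remaining vehicle libraries had 113.9 to 116.7 CPM. Cdt1 had 42.46 CPM in vehicle replicate 3, where the remaining ones had 35.5 to 36.3 CPM. CPT-11 replicate 2 is also the library with the fewest long-gene reads and the highest enterocyte marker sum, and the part of these in its low values was not tested.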

How the results depend on the processing

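The median log2 fold change of the polymerase group was negative in all 18 alternatives (-0.87 to -0.64). The count of all genes called lower, 353, became 839 with DESeq2, 1624 with quality weights, 575 without CPT-11 replicates 2 and 4 together, 615 with the length trend removed and 104 to 753 with 1 library left out. The count called higher, 417, became 1045, 1548, 637 and 684 in the same 4 settings and 132 to 769 with 1 library left out. Of the 34 members, with 1 called lower, the count was 3 with no filter, 6 with DESeq2, 3 with limma-voom, 8 with quality weights, 6 without CPT-11 replicates 2 and 4 together, 5 with the length trend removed and 0 to 3 with 1 library left out. Further replication genes called lower, 4 in the reported fit, were 8 with DESeq2, 10 with quality weights and 2 to 5 with 1 library left out. The shares of all genes called lower were 2.52% in the reported fit, 6.00% with DESeq2 and 11.6% with quality weights. With 1 library left out they were 0.729 to 5.32%. Further genes called higher were 1 with DESeq2, 1 with quality weights and 1 with the length trend removed, where 1045, 1548 and 684 of all genes were.

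Signs turned for members with log2 fold changes of -0.17 to 0.17 and for Tipin, at 0.38. With quality weights Mcm2 was at 0.078, Cdc6 at 0.062, Gins4 at -0.026, Mcm4 at 0.090, Chaf1b at -0.055 and Slbp at 0.065. Without CPT-11 replicates 2 and 4 together Mcm2 was at 0.10, Cdc6 at 0.094, Gins4 at -0.20, Mcm4 at 0.13, Tipin at -0.010 and Chaf1b at -0.15. With the length trend removed Rfc5 was at 0.020, Gins1 at -0.047, Gins4 at -0.15, Gins2 at 0.093, Mcm4 at 0.068 and Chaf1b at -0.019. With 1 library left out the ranges were -0.19 to 6.1e-05 for Pcna, -0.17 to 0.096 for Rfc5, -0.37 to 0.070 for Mcm3, -0.27 to 0.095 for Mcm2, -0.23 to 0.14 for Cdc6, -0.071 to 0.17 for Gins4, -0.17 to 0.029 for Gins2, -0.33 to 0.086 for Gins3, -0.13 to 0.067 for Cdt1, -0.11 to 0.18 for Mcm4, -0.39 to 0.095 for Ung, -0.078 to 0.16 for Chaf1b and -0.13 to 0.068 for Slbp. The cause was not tested.

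Replicate numbers are shared by the groups, but no label says that they pair libraries, so they were not taken to do so. Same-numbered libraries correlated at 0.310, 0.166, -0.158 and 0.121 in their deviations from the group means. The same-numbered vehicle library was the best match for CPT-11 replicates 1 and 2, and another one was for replicates 3 and 4. With the replicate number as a block, 2 members were called lower, Pola1 and Pole, against 2.06% of all genes.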
